A study of Mus musculus with 9 samples.

Results

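Cxcl1, Cxcl3, Ccl2, Ccl7 and Csf3 encode 4 chemokines and the granulocyte growth factor G-CSF. They were taken by symbol from 3 deposited tables of a Schwann cell experiment, and are 5 of the 819 genes that the tables list. All 5 stood in the tables that set M-SCs against SCs and against E-SCs. None stood in the table of E-SCs and SCs, which held 0.543% of the 18409 genes tested by the authors as higher and 0.462% as lower in E-SCs. The genes were chosen for their values in M-SCs, so comparisons with M-SCs are described without a test, while E-SCs against SCs was tested.

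The cells were RSC96, an immortalised rat Schwann cell line, so that every group is 1 line. E-SCs were given exosomes, which are small secreted vesicles, from MenSCs, stem cells obtained from menstrual blood. M-SCs were given medium conditioned by MenSCs, and SCs were the controls, with 3 libraries in each group. The design text calls SCs control cells, while the sample titles describe them as co-cultured with control MenSCs, so SCs may not be untreated cells. Doses and times were not found in the labels, nor whether the libraries of a group were separate cultures. The p-values therefore measure library-to-library spread, part or all of which may be technical.

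Chemokines are small secreted proteins that bind G protein-coupled receptors on leukocytes and draw them towards the source. CXCL1 and CXCL3 act through CXCR2 and mainly attract neutrophils, whereas CCL2 acts through CCR2 and CCL7 through CCR2 and other CC receptors, and both attract monocytes. G-CSF acts through its own receptor, CSF3R, on neutrophil precursors and neutrophils. In injured peripheral nerve, Schwann cells are a known source of CCL2. Transcription of these genes is commonly switched on by NF-kB, downstream of cytokines such as IL-1, TNF and IL-17 or of Toll-like receptors.

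NF-kB binds kappa-B sites, and promoters of genes that were high in the same libraries are shown for that reason. The gene identifiers of the tables are rat Ensembl identifiers, while the submitters' processing notes name the mouse build mm10 and the labels name mouse as the organism. The promoters come from RefSeq for mouse, build GRCm38.p6, and are the mouse counterparts of the measured genes. Of the 5 symbols, Cxcl1 and Cxcl3 had an entry among these promoters. Ccl2, Ccl7 and Csf3 had none, so their promoters were not searched. Each sequence runs from 250 bases before to 50 bases after the start of the gene, on the + strand, at chr5:90890995-90891294 for Cxcl1 and chr5:90785851-90786150 for Cxcl3. Capitals mark the matches to the kappa-B consensus, searched on both strands, where the matches of the opposite strands overlap:
Cxcl1: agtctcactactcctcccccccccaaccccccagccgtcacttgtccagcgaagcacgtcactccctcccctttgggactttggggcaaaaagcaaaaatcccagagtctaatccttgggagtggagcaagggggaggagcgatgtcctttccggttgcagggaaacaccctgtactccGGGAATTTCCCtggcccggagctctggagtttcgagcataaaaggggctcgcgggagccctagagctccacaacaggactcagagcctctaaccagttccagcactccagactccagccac
Cxcl3: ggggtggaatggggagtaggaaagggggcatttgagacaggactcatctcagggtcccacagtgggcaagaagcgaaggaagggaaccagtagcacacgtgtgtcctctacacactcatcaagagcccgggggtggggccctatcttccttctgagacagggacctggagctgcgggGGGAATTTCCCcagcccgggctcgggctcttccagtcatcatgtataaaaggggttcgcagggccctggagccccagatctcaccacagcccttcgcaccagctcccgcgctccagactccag

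Both windows hold the same 11 letters in capitals, which begin 71 bases before the start in Cxcl1 and 73 bases before it in Cxcl3. The kappa-B consensus was found in 8.46% of the 32851 mouse promoter windows of this length, and the exact motif GGGAATTTCC, chosen after the match was seen and searched on both strands, in 0.0883%. A match is a description of letters in the mouse window and says nothing on binding in the rat cells. In the mouse annotation, Cxcl1 and Cxcl3 lie on chromosome 5 with 1 protein-coding gene between them. Ccl2 and Ccl7 are neighbours on chromosome 11 with 0 protein-coding genes between them, and Csf3 is on the same chromosome with 248 between it and Ccl2.

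Levels are given as FPKM, the authors' fragment counts per transcript length and sequencing depth, which allow genes to be compared per length. Cxcl1, the neutrophil chemokine, had 119, 113 and 117 FPKM in the E-SCs libraries, 475, 532 and 495 FPKM in M-SCs and 139, 132 and 133 FPKM in SCs. All M-SCs libraries lay above all others, and all E-SCs libraries lay below all SCs libraries. Cxcl3, a close paralog with the same receptor, had 33.0, 28.5 and 25.4 FPKM in E-SCs, 107, 130 and 105 FPKM in M-SCs and 27.6, 27.1 and 27.8 FPKM in SCs. Here M-SCs again stood apart, whereas E-SCs and SCs overlapped, with the 3 SCs libraries inside the range of E-SCs. The sources used here do not say how reads shared between paralogs were assigned, so the separate levels of Cxcl1 and Cxcl3 are uncertain to that extent. In bulk RNA, a change in the number of cells that express a gene and a change in RNA per cell cannot be told apart.

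**Figure D1:**
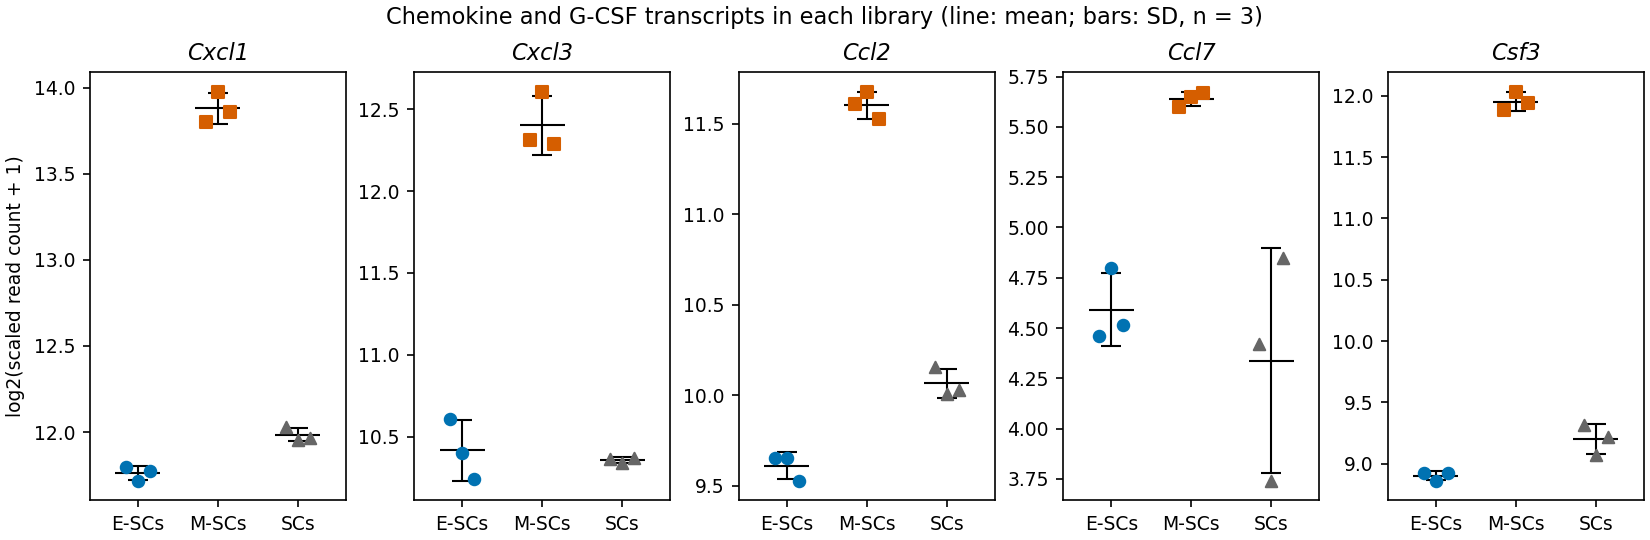
Per-library log2 of the authors' scaled read count plus 1 (vertical axis, own range in each panel) for the 5 genes in E-SCs, M-SCs and SCs; points are libraries, lines means and bars SD (n = 3). M-SCs lie above both other groups in every panel, and E-SCs lie below SCs without overlap for Cxcl1, Ccl2 and Csf3.

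The monocyte chemokine Ccl2 had 29.9, 29.8 and 27.2 FPKM in the E-SCs libraries, 115, 120 and 109 FPKM in M-SCs and 41.9, 37.8 and 38.5 FPKM in SCs. The 3 groups did not overlap, with M-SCs highest and E-SCs lowest. Ccl7, its neighbour, had 0.732, 0.972 and 0.759 FPKM in E-SCs, 1.72, 1.74 and 1.79 FPKM in M-SCs and 0.707, 0.416 and 1.01 FPKM in SCs. The scarcest of the 5 transcripts, it rested on 21, 26 and 19 reads in E-SCs, 51, 44 and 58 in M-SCs and 23, 13 and 26 in SCs. E-SCs lay within the range of SCs, and SCs replicate 2 was the lowest library of all. The growth factor gene Csf3 had 11.6, 11.1 and 11.5 FPKM in E-SCs, 89.8, 99.0 and 93.5 FPKM in M-SCs and 15.1, 12.8 and 14.1 FPKM in SCs. As for Ccl2, the groups did not overlap and were in the order M-SCs, SCs, E-SCs.

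In level per length, Cxcl1 was the most abundant of the 5 and Ccl7 the least in every group. In E-SCs the order was Cxcl1 at 116 ± 3.27 FPKM (SD, n = 3), then Cxcl3 at 29.0 ± 3.82 and Ccl2 at 28.9 ± 1.55, which overlapped, then Csf3 at 11.4 ± 0.267 and Ccl7 at 0.821 ± 0.132. In M-SCs it was Cxcl1 at 501 ± 29.0 FPKM, then Ccl2 at 114 ± 5.52 and Cxcl3 at 114 ± 14.0, which overlapped, then Csf3 at 94.1 ± 4.66 and Ccl7 at 1.75 ± 0.0348. In SCs it was Cxcl1 at 135 ± 3.62 FPKM, Ccl2 at 39.4 ± 2.18, Cxcl3 at 27.5 ± 0.326, Csf3 at 14.0 ± 1.15 and Ccl7 at 0.710 ± 0.296, with no overlap between neighbours. Ccl2 thus stood clear of Cxcl3 in SCs and not in the treated groups.

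**Figure D2:**
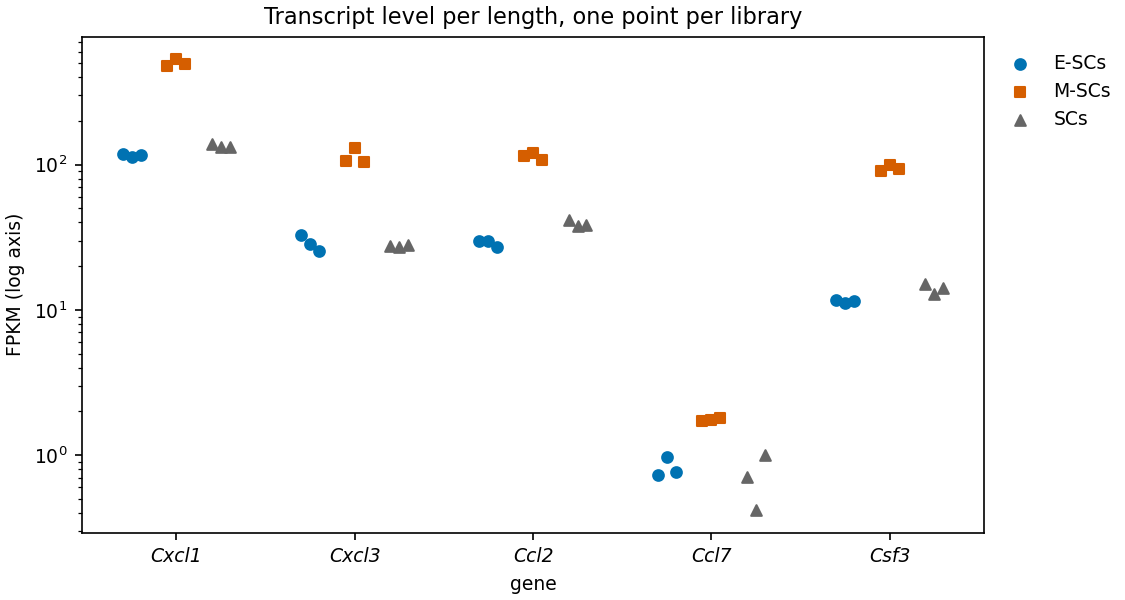
FPKM on a log axis for the 5 genes, with 1 point per library and E-SCs, M-SCs and SCs side by side. Cxcl1 is highest in each group, Ccl7 lowest at 0.416 to 1.79 FPKM, and Csf3 moves closest to Cxcl3 and Ccl2 in M-SCs.

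Summed over the 5 genes, the level was 186 ± 7.17 FPKM in E-SCs, 825 ± 50.6 FPKM in M-SCs and 216 ± 7.08 FPKM in SCs (SD, n = 3 each). Cxcl1 made up 62.4 ± 1.62% of this sum in E-SCs, 60.7 ± 0.756% in the M-SCs libraries and 62.3 ± 0.452% in SCs, and these ranges overlapped between E-SCs and the other groups. The share of Csf3 was 6.13 ± 0.188% in E-SCs, 11.4 ± 0.207% in the M-SCs libraries and 6.46 ± 0.335% in SCs. Relative to Cxcl1 in the same library, Csf3 stood at 9.83 ± 0.0649% in E-SCs, 18.8 ± 0.164% in the M-SCs libraries and 10.4 ± 0.611% in SCs. All 3 M-SCs libraries were above the other 6 in this ratio, so the mixture in M-SCs held more Csf3 per Cxcl1. Ccl2 held 15.5 ± 0.666% of the sum in E-SCs, 13.9 ± 0.605% in the M-SCs libraries and 18.2 ± 0.427% in SCs.

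M-SCs were compared with SCs to ask what conditioned medium changed. On the log2 scale of the scaled counts, Csf3 was higher in M-SCs by 2.75 (limma SE 0.08), or 6.74-fold. Cxcl3 was higher by 2.04 (SE 0.08), Cxcl1 by 1.89 (SE 0.05), Ccl2 by 1.54 (SE 0.06) and Ccl7 by 1.30 (SE 0.34). All 5 were in the authors' list as higher in M-SCs, as were 1.33% of the 18503 genes that the authors' FDR and p-values show as tested, while 0.859% were listed as lower. Nothing is read from this count, because the genes were chosen with it known. The 95% interval of Ccl7, from 0.52 to 2.09, took in the differences of Cxcl1, Cxcl3 and Ccl2, and the interval of Csf3, from 2.58 to 2.93, lay above those of the other 4.

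E-SCs against M-SCs set the exosomes against the conditioned medium. Csf3 was lower in E-SCs by a log2 difference of -3.05 (limma SE 0.06), so that M-SCs held 8.27 times as much. The differences of the chemokines were -2.12 (SE 0.05) for Cxcl1, -1.99 (SE 0.06) for Ccl2, -1.99 (SE 0.11) for Cxcl3 and -1.05 (SE 0.26) for Ccl7. Ccl7 was nearest to the authors' limit of 2-fold. In the authors' deposited table, which gives M-SCs over E-SCs, Ccl7 had a log2 fold change of 1.05 and an FDR of 0.00635. All 5 were in the authors' list as lower in E-SCs, against 1.76% of the 18514 genes tested, with 1.24% listed as higher, and again nothing is read from this.

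**Figure D3:**
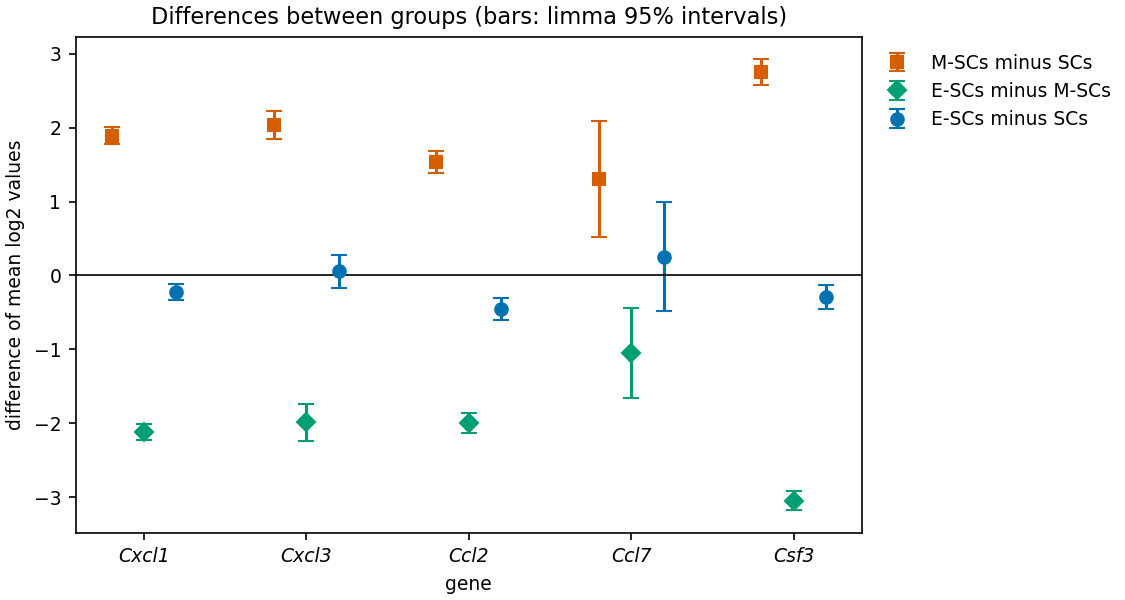
Differences of mean log2 values for the 5 genes (vertical axis) in M-SCs minus SCs, E-SCs minus M-SCs and E-SCs minus SCs; points are estimates and bars limma's 95% intervals. The first comparison is above 0 and the second below 0 for each gene, with Csf3 farthest out at 2.75 and -3.05, while E-SCs minus SCs stays between -0.45 and 0.25.

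E-SCs were compared with SCs to ask whether exosomes changed the same transcripts. Ccl2 fell by 0.45 on the log2 scale in E-SCs (SE 0.07, limma adjusted p = 8.33e-04), to 0.730 times its level in SCs. Csf3 fell by 0.30 (SE 0.07, limma adjusted p = 0.012) and Cxcl1 fell by 0.22 (SE 0.05, limma adjusted p = 0.0070). All of these were lower in 3 of 3 E-SCs libraries than in any SCs library. Cxcl3 differed by 0.06, with a 95% interval from -0.17 to 0.28 (limma adjusted p = 0.79), and Ccl7 by 0.25, with an interval from -0.48 to 0.99 (limma adjusted p = 0.67). For Ccl7 a difference was not detectable at 62 to 66 reads per group.

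Adjusted p-values here were taken over the 316 genes with values in all 9 libraries. Of those genes 17.7% passed as lower in E-SCs and 20.6% had every E-SCs library below every SCs library, against 3 of the 5 in both counts. In the other direction 13.3% passed and none of the 5 did, and the groups were apart in either direction in 40.2%. Of the 316 genes, 104 had been selected by the authors for differing between E-SCs and SCs. Among those 104, 66 passed, 36 of them as lower in E-SCs. None of the 5 had been selected so, and the shares passing over the 316 genes are raised by that selection. The exact two-sided permutation test gave p = 0.10 for Ccl2, Csf3 and Cxcl1, the smallest value that 3 against 3 libraries allow, and 0.70 for Cxcl3 and 0.60 for Ccl7. The same libraries had been looked at when the genes were chosen, and the 2 comparisons with SCs share them. With each library shifted to the same median the calls for Cxcl1 (adjusted p = 0.11) and Csf3 (0.086) ended, with differences of -0.19 and -0.26, and that for Ccl2 held (0.0075). That shift moved the difference of E-SCs and SCs by 0.03 and that of M-SCs and SCs by -0.50. It moved that of E-SCs and M-SCs by 0.46, and all were taken over genes selected for differing. None of the 5 changed sign in any of the 3 comparisons. For Ccl7, however, limma's intervals in the comparisons with M-SCs then took in both signs. Genes named below differed by more than 1 in any comparison with M-SCs that listed them, so these shifts turn none of those differences.

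M-SCs replicate 2 was the highest of its group for 4 of the 5 genes, E-SCs replicate 1 for 4 and SCs replicate 1 for 3. The same count was not made over the 316 genes, so no library is said to stand out by it. The chi-square of reads per degree of freedom between M-SCs replicate 2 and replicates 1 and 3 was 19.7 and 14.4. It was 8.55 between M-SCs replicates 1 and 3, and 14.1 to 17.3 within SCs. Some ranges of the 5 genes within a group were small, such as 0.07 for Csf3 and 0.08 for Cxcl1 on the log2 scale in E-SCs. The widest spread within E-SCs and M-SCs belonged to Cxcl3 among the 4 abundant genes, with a range of 0.37 and 0.32 on the log2 scale, while in SCs its range was 0.03. Over the 316 genes, the median deviation of a library from its group mean stayed between -0.0088 and 0.013. Relative depth ran from 0.868 to 1.16 times that of E-SCs replicate 1.

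Among other chemokine ligands, 2 of a list of 32 were listed for M-SCs against SCs, 1 past the test in each direction, where 1.33% and 0.859% of all genes tested were listed as higher and lower and 50.4% and 32.8% of the listed genes passed so. Cxcl6, another neutrophil-attracting CXC ligand, had 6.99, 6.72 and 6.52 FPKM in the E-SCs libraries, 30.7, 34.2 and 32.9 FPKM in M-SCs and 6.76, 7.51 and 6.88 FPKM in SCs. It rose in M-SCs by 2.20 (SE 0.08, limma adjusted p = 3.60e-08), and E-SCs and SCs overlapped (difference -0.07, adjusted p = 0.56). Ccl20, which attracts lymphocytes and dendritic cells through CCR6, went the other way, with 0.768, 0.642 and 0.611 FPKM in M-SCs and 1.79, 1.67 and 1.97 FPKM in SCs, and fell by 1.34 (SE 0.28, limma adjusted p = 0.0032). Listed genes had been selected by the authors for differing in the same libraries and comparison. Passing limma's test there, in this and the next paragraphs, therefore adds no support of its own. No member of the list of 6 other colony-stimulating factors was listed in any table, where at most 1.76% of all genes tested were listed in 1 direction. Nothing is read from so short a list.

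Of 26 chemokine and growth factor receptors, Ccr1 was listed for M-SCs against SCs, and Ccr1 and Cxcr5 for E-SCs against SCs. Of all genes tested, 1.33% and 0.859% were listed as higher and lower in M-SCs against SCs. For E-SCs against SCs these shares were 0.543% and 0.462%. Nothing is read from so few genes. CXCR2, CCR2 and CSF3R, the main receptors of the 5 products, were not listed, so their levels were not analysed here. Ccr1, a receptor that CCL7 binds, had 3, 4 and 3 reads in the E-SCs libraries, 9, 12 and 13 in those of M-SCs and 0 in each SCs library. It passed limma's test in both E-SCs (adjusted p = 0.0071) and M-SCs (adjusted p = 3.11e-04), on few reads. Cxcr5, a B cell receptor for another chemokine, had 2, 0 and 10 reads in the E-SCs libraries and 20, 28 and 5 in the SCs libraries and did not pass (limma adjusted p = 0.082).

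The table of M-SCs against SCs held 3 of 23 NF-kB subunits and inhibitors, and 2 passed as higher, as did 50.4% of the genes in that table, with 32.8% passing as lower. Nfkbiz, an inducible nuclear cofactor of NF-kB, had 2.24 ± 0.138 FPKM in E-SCs, 6.34 ± 0.650 FPKM in M-SCs and 2.33 ± 0.319 FPKM in SCs. Tnip3, which binds the NF-kB inhibitor A20, had 12 reads summed over the E-SCs libraries, 115 over the M-SCs libraries and 15 over the SCs libraries. Nfkbid, the third, missed the threshold (1.01, SE 0.45, limma adjusted p = 0.059). For E-SCs against M-SCs, 5 were listed and all 5 passed as lower in E-SCs, as did 55.5% of the genes in that table, with 36.6% passing as higher. Nfkbia, the classical inhibitor that NF-kB itself induces, was among them at 34.9 ± 1.02 FPKM in E-SCs and 94.9 ± 6.83 FPKM in M-SCs, and its log2 level fell by 1.45 in E-SCs (SE 0.06, limma adjusted p = 5.33e-08).

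Upstream of NF-kB, 1 of 27 cytokines and receptors was in the table of M-SCs and SCs, and 2 were in that of E-SCs and M-SCs, beside 1.33% of all genes tested listed as higher in M-SCs and 1.76% as lower in E-SCs. Cd14, a co-receptor for bacterial lipopolysaccharide, had 3.15, 2.69 and 2.89 FPKM in E-SCs, 9.25, 11.3 and 10.3 FPKM in M-SCs and 4.39, 3.36 and 3.15 FPKM in SCs. Tlr2, a receptor for bacterial lipopeptides, was at 0.402 ± 0.147 FPKM in E-SCs and 1.09 ± 0.258 FPKM in M-SCs, and fell by 1.44 in E-SCs (SE 0.33, limma adjusted p = 0.0038). Cd14 passed the test with differences of 1.51 (SE 0.14) for M-SCs minus SCs and -1.82 (SE 0.11) for E-SCs minus M-SCs.

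The table of M-SCs against SCs held 4 of 17 other inflammatory targets, all of which passed as higher, beside 50.4% of its genes. The superoxide dismutase Sod2 was at 20.7 ± 1.59 FPKM in E-SCs, 137 ± 5.90 FPKM in M-SCs and 24.4 ± 2.45 FPKM in SCs. Complement C3 had 2 reads over the E-SCs libraries, 553 over those of M-SCs and 2 over those of SCs. Lcn2, an iron-scavenging defence protein, had 66 reads over E-SCs libraries, 200 over M-SCs and 43 over SCs, and Ptgs2, the inducible cyclooxygenase, had 342 in M-SCs and 128 in SCs. For E-SCs against M-SCs, 6 were listed, and 5 passed as lower and 1 as higher, beside 55.5% and 36.6% of that table. The one higher was Sele, the endothelial adhesion molecule E-selectin, with 17 reads over the E-SCs libraries and 0 in each other group.

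Of 24 transcription and mRNA decay partners, 3 were in the table of M-SCs and SCs, 2 past the test as higher and 1 as lower, beside 50.4% and 32.8% of its genes. In that of E-SCs and M-SCs there were 4, all past the test as lower, beside 55.5% of its genes. Zc3h12a, a nuclease that degrades inflammatory mRNAs, was at 8.48 ± 0.459 FPKM in E-SCs, 32.9 ± 0.838 FPKM in M-SCs and 10.5 ± 0.435 FPKM in SCs. Socs3, a feedback inhibitor of STAT3 signalling and of the G-CSF receptor, was at 55.4 ± 3.40 FPKM in E-SCs, 144 ± 9.73 FPKM in M-SCs and 69.9 ± 3.28 FPKM in SCs. Both rose in M-SCs against SCs (1.65, SE 0.06, and 1.04, SE 0.06, limma adjusted p = 3.60e-08 and 1.20e-06). Atf3, a stress-induced transcription factor, fell by 1.09 in M-SCs (SE 0.04).

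**Figure D4:**
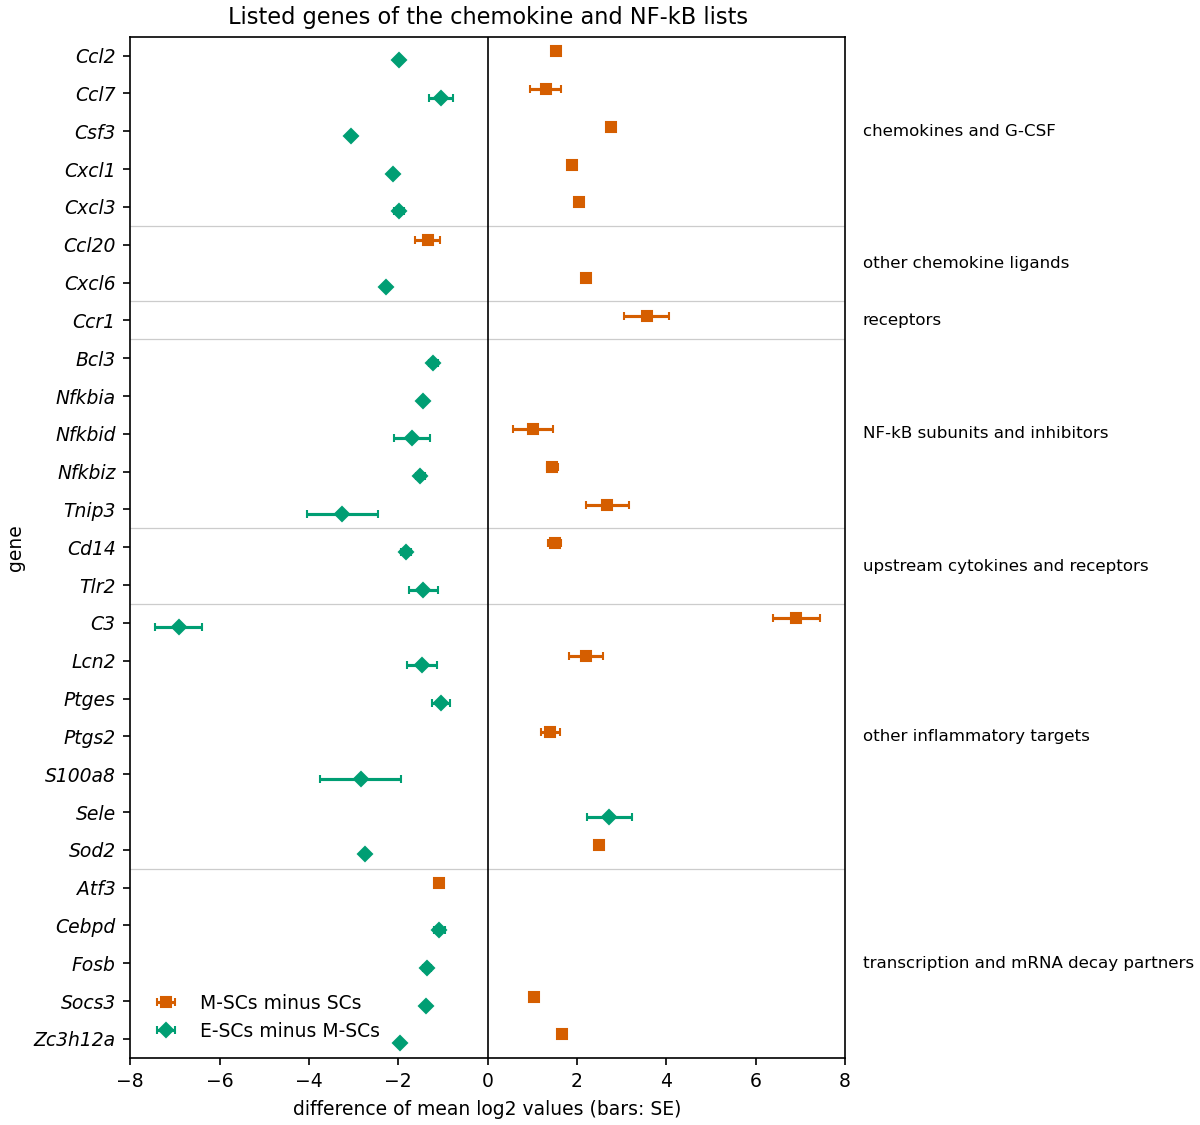
Differences of mean log2 values (horizontal axis, bars SE) for the listed genes of each list, in M-SCs minus SCs and E-SCs minus M-SCs; a missing point means that the gene was not listed for that comparison. Apart from Ccl20, Atf3 and Sele, each gene lies above 0 in the first comparison and below 0 in the second where it has a point; for Ccr1 and Sele 1 group had 0 reads, so the size shown is no measure of the difference.

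These 7 lists together hold 155 genes without the 5, of which 14 were listed for M-SCs against SCs. Of the 14, 13 passed limma's test, beside 83.2% of the whole table. In 11 the level was higher in M-SCs and in 2 lower, and the median difference of the 14 was 1.58, beside 1.13 for all 405 listed genes. For E-SCs against M-SCs all 18 listed passed, beside 92.1% of the whole table, 17 lower and 1 higher in E-SCs, with a median of -1.49 beside -1.10 for all 555. Neither median depends on the size fitted for Ccr1 or Sele. In the authors' table of E-SCs against SCs 5 were listed, of which Ccr1 and Sele passed as higher and Fos and Fosb, subunits of the AP-1 transcription factor, as lower. That table had 185 genes, and 65.4% passed, 31.9% as higher and 33.5% as lower. Where 9 libraries had values, 13 of the 155 could be set beside the 5 in E-SCs against SCs. Of the 13, 6 passed, 2 higher and 4 lower, beside 31.0% of the 316 genes. Ccr1, Sele and Fosb were among the 6 and had been listed by the authors for this comparison, so their passing adds no support. Sod2 fell by 0.24 (SE 0.08, limma adjusted p = 0.032) and Socs3 by 0.35 (SE 0.07, limma adjusted p = 0.0036). Zc3h12a fell by 0.31 (SE 0.06, limma adjusted p = 0.0038) and Fosb by 1.48 (SE 0.10, limma adjusted p = 2.32e-06), while Ccr1 and Sele rose. Equal medians, which ended the calls for Cxcl1 and Csf3, were not examined for these genes.

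The KEGG annotation in the deposited tables places all 5 genes in the IL-17 signaling pathway and in cytokine-cytokine receptor interaction, and the 4 chemokines in chemokine signaling. For M-SCs against SCs, 9 listed genes carried the IL-17 label. The 4 besides the 5 were Cxcl6, Lcn2 and Ptgs2, which were higher in M-SCs, and Ccl20, which was lower. For E-SCs against M-SCs there were 11, of which 5 of the 6 others were lower in E-SCs. The kinase gene Mapk10 was the other one, with 15 reads in E-SCs and 0 in M-SCs. In cytokine-cytokine receptor interaction the others were split, with 8 higher and 7 lower in M-SCs than in SCs, and 4 lower and 7 higher in E-SCs than in M-SCs. The whole tables held 246 genes listed as higher and 159 as lower in M-SCs against SCs, and 325 as lower and 230 as higher in E-SCs against M-SCs. These genes were picked by their label after the tables were read, and no enrichment was tested.

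The genes with the most similar profile were found by the root mean square distance over the 9 log2 values, each gene centred on its own mean, among 119 other genes with a mean log2 value of at least 5 (120 for Ccl7, which lies under that mean). Ccl2 was closest to Cpt1a, which encodes the carnitine transferase of mitochondrial fatty acid import, at 0.07, then Zc3h12a at 0.11 and Cd14 at 0.14. Cpt1a stood at 3.64 ± 0.175 FPKM in E-SCs, 14.7 ± 0.515 FPKM in M-SCs and 4.81 ± 0.108 FPKM in SCs. Cxcl1 was closest to Zc3h12a at 0.12, Cxcl6 at 0.14 and Cpt1a at 0.14, and Cxcl3 to Cxcl1 at 0.15, Cxcl6 at 0.16 and Zc3h12a at 0.23. For Csf3 the nearest were Sod2 at 0.18, Clca4l at 0.19 and Cxcl6 at 0.34, and for Ccl7 they included Efna5 at 0.28 and Sox7 at 0.29. The compared genes had been selected for differing between groups. How common such distances are among them was not counted, so nothing is read from the closeness.

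Only genes that differed are in the tables, at most 1.76% of all genes tested in each direction. A marker that is not listed may therefore still be expressed, and no absence of other cells is read from the counts. Of 16 macrophage and leukocyte markers, Cd14 alone was listed, at 2.69 to 3.15 FPKM in E-SCs, 9.25 to 11.3 FPKM in M-SCs and 3.15 to 4.39 FPKM in SCs. It moved with the chemokines, and its part in the result was not tested. The other 15 markers have no value here, so the summed level of the list is not known. Of 12 fibroblast and mesenchymal markers Nt5e was listed, with 21 reads in E-SCs and 66 in M-SCs, and of 6 endothelial markers none was. Of 17 Schwann cell markers, those listed and present included the myelin genes Pmp22 and Prx. Prx was at 6.34 ± 0.516 FPKM in E-SCs, 2.70 ± 0.296 FPKM in M-SCs and 6.63 ± 0.605 FPKM in SCs. Pmp22 was at 13.4 ± 0.630 FPKM in E-SCs and 27.0 ± 1.69 FPKM in M-SCs.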

How the data were processed

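Poly(A)-selected RNA of 9 libraries was sequenced in read pairs on Illumina HiSeq, per the labels' protocols. Named in the submitters' processing notes are HISAT2, StringTie and mm10, without versions or roles; all 819 identifiers are rat Ensembl identifiers. The authors deposited 3 tables of selected genes, which by their values differed 2-fold or more with p below 0.05. The deposited log2 values are, from the values, log2(scaled read count + 1); reads were recovered by dividing by the library's step, and 100% of values up to 1000 reads came out whole within 0.01 reads. Library totals are unknown; reads over the 316 genes with values in all 9 libraries ran from 181682 to 279573. The authors' deposited FPKM were in 2 tables and not in that of E-SCs against SCs. The authors' p-value and FDR come from a test not given in the sources used here; their ratio gave the number of genes tested. Values of a gene in a library were identical across tables, so tables were joined by identifier.

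Differences and SE came from limma 3.58.1 (R 4.3.3, trended prior variance), fitted to the log2 values of each table, or of all 9 libraries for the 5 genes in E-SCs against SCs, with no filter, Benjamini-Hochberg adjustment and a threshold of 0.05. Because tables hold genes selected for differing in the same libraries, adjusted p-values are smaller than over all genes. For a listed gene, passing the test in the comparison that listed it is no independent support. Replicates differed beyond sampling noise (chi-square per degree of freedom 6.35 to 19.7). limma was tested on simulated data. Named were the 5 genes, up to 4 listed genes per list by size of difference past the test (all if 4 or fewer), and the 3 most similar profiles per gene (some items under these rules are not reported here); Lcn2 for E-SCs and the IL-17 genes were added after their values were seen. Genes and lists were chosen with earlier results of these data known. Alternatives were each library left out, a replicate block, equal medians, a mean log2 value of at least 5, a pseudocount of 0.1, log2(FPKM + 1) and fits of 6 or 9 libraries. Python 3.11.15, pandas 2.3.3, numpy 2.4.6, scipy 1.17.1 and matplotlib 3.10.9 were used.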

Additional observations from a re-analysis of the deposited data

Results flagged for a closer look

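For 3 of the 5 genes every M-SCs library lay above and every E-SCs library below all SCs libraries. Of the 316 genes with values in all 9 libraries, 20.6% had every E-SCs library below every SCs library, and the M-SCs side follows from how the genes were chosen. Those 316 include 104 that the authors had selected for differing between E-SCs and SCs. With equal medians the E-SCs calls of Cxcl1 and Csf3 against SCs ended (limma adjusted p = 0.11 and 0.086). The log2 difference of E-SCs minus M-SCs was -2.12 for Cxcl1, -1.99 for Ccl2 and -3.05 for Csf3. This difference between the treatments was not tested, since the genes were chosen with it known.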

How the results depend on the processing

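Of 228 alternatives, 201 kept direction and side of the threshold, or stayed within the spread of replicates. For counts of genes past the test, the rule was instead to stay within a fixed fold of the main count. Genes past limma's test (337 for M-SCs minus SCs, 511 for E-SCs minus M-SCs, 121 for E-SCs minus SCs) numbered 165, 270 and 34 with a filter at a mean log2 of 5, and 216, 258 and 66 in the fit of 9 libraries, which both test fewer genes; without 1 library they were 275 to 293, 429 to 440 and 78 to 105. The last count was 80 without SCs replicate 1, 78 without 2, 80 without 3 and 79 without E-SCs replicate 2. Equal medians turned the higher and lower calls from 204 and 133 to 135 and 154 for M-SCs minus SCs, and from 59 and 62 to 44 and 73 for E-SCs minus SCs; these are medians of genes selected for differing.

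With equal medians, M-SCs minus SCs was 1.39 for Cxcl1, 1.54 for Cxcl3, 1.03 for Ccl2, 0.80 for Ccl7 and 2.25 for Csf3. E-SCs minus M-SCs was -1.65, -1.52, -1.53, -0.58 and -2.58 in the same order. For Ccl7 limma's interval then took in both signs, from -0.049 to 1.65 and from -1.25 to 0.087. The intervals of Cxcl1, Cxcl3, Ccl2 and Csf3 kept their sign in these comparisons. E-SCs minus SCs then lost the calls for Cxcl1 (-0.19) and Csf3 (-0.26). The adjusted p of Cxcl1 ran from 0.0016 to 0.11 over 15 alternatives, that of Csf3 from 0.0060 to 0.086 and that of Ccl2 from 1.09e-04 to 0.0075. On log2(FPKM + 1), where a pseudocount of 1 weighs on low levels, Ccl7 was at 0.70 and -0.60 and Csf3 at -2.94 in E-SCs minus M-SCs. Cxcl3 and Ccl7, not called in E-SCs minus SCs, changed sign without E-SCs replicate 1 (-0.039) and SCs replicate 2 (-0.044); the cause was not tested. Without 1 library their differences ran from -0.039 to 0.15 and from -0.044 to 0.51. With the filter Ccl7 was not tested against SCs. Same-numbered libraries showed no consistent pairing, with correlations of their deviations from -0.25 to 0.44; with the replicate block limma called 338, 493 and 122 genes and no call for the 5 changed.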
